A study of Mus musculus with 8 samples.

Results

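The translation initiation factor genes of the mouse were described here in pools of blastocysts that had developed with or without a synthetic miR-21-5p. Members were the genes whose symbol begins with Eif and a digit from 1 to 6, leaving out the kinases Eif2ak1 to Eif2ak4. This gave 69 of the 22013 genes in the table, of which 61 passed the filter on low counts and 8 did not. Of the 69, 53 encode the factors, their binding proteins and close relatives of them, and 16 are near-identical copies of an eIF1A domain gene, named between Eif1ad2 and Eif1ad19, that all lie on chromosome 12. The agomir group had 4 libraries from wild-type embryos of the outbred ICR stock, made by in vitro fertilisation and cultured for about 75 h in KSOM medium with 50 nM miR-21-5p agomir, a chemically modified double-stranded mimic of the microRNA. The control group had 4 libraries from ICR embryos cultured in the same way with the vehicle and no oligonucleotide, so no unrelated oligonucleotide stands beside the agomir. Each library came from a pool of 5 blastocysts, and the labels put all 8 in 1 batch and call the pools biological replicates. They do not say whether the pools had separate parents or fertilisation sessions, so p-values measure only the spread between these pools.

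Initiation assembles a ribosome at the start codon of a messenger RNA. The trimeric eIF2 brings the initiator methionyl-tRNA as a complex with GTP, and eIF2B recharges eIF2 with GTP after each round. eIF1, eIF1A, eIF3 and eIF5 bind the small ribosomal subunit and control scanning and start-codon choice, eIF4E binds the 5′ cap, the scaffold eIF4G joins eIF4E to the helicase eIF4A, and eIF5B joins the large subunit. The eIF4E-binding proteins hold back eIF4E until mTOR phosphorylates them. In the mouse embryo, Eif1a is among the genes switched on at the onset of embryonic transcription, and maternal messages have been replaced by embryonic ones well before the blastocyst stage.

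The microRNA carried by the agomir is shown because its seed sets which sites can be searched for among the members. RefSeq places the mature mmu-miR-21a-5p on the minus strand of chr11:86584120-86584141 (GRCm38.p6), with the seed, bases 2 to 8, in capitals.
mmu-miR-21a-5p: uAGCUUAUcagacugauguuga
The 7-base match to that seed is ATAAGCT. It was searched on the sense strand only, in the longest 3′ untranslated region that GENCODE lists for a gene. Of the 12222 tested genes with such a region, 961 (7.86%) held the match. Of the 56 tested members with a region, 5 (8.93%) held it: Eif1a, Eif1ax, Eif2a, Eif4g2 and Eif4ebp2. The sites of 4 of these genes are shown, with the match in capitals, because they are the places where a member's message matches the agomir's seed.
Eif1ax: agtcttactcacATAAGCTacaattttga
Eif2a: gattttttccagATAAGCTtaataaattg
Eif4g2: agcacctaaggaATAAGCTtgtctcatcc
Eif4ebp2, first site: gctgtctcaggaATAAGCTtgggggtctc
Eif4ebp2, second site: gcagtcacagccATAAGCTattaggacag
None of these 5 genes had an unadjusted p under 0.05 with edgeR. Their log2 fold changes, agomir over control, were 0.33 for Eif1a (SE 0.22), -0.05 for Eif1ax (SE 0.18), -0.09 for Eif2a (SE 0.20), -0.05 for Eif4g2 (SE 0.17) and -0.12 for Eif4ebp2 (SE 0.23). A match is a description of the letters and not a tested site.

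The eIF1A domain copies are shown beside the X-linked Eif1ax, which encodes eIF1A as the autosomal Eif1a does, because their likeness limits what can be said of each one. The stretches are bases 61 to 150 of the coding sequence, and capitals mark bases that differ from Eif1ax.
Eif1ax: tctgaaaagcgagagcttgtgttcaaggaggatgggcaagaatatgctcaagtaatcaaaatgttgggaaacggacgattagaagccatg
Eif1ad3: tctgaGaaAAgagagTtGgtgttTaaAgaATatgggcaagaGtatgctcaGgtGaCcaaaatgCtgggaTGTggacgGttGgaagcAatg
Eif1ad7: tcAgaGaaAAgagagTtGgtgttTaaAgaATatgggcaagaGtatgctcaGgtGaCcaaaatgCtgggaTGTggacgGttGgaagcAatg
Eif1ad8: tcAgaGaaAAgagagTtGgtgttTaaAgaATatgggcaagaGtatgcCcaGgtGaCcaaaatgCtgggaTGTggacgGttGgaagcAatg
Eif1ad6: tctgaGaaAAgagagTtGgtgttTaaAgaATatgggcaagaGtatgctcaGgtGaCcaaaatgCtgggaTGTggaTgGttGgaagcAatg
Eif1ad3 differed from Eif1ax at 20 of these 90 bases, Eif1ad7 and Eif1ad6 at 21 and Eif1ad8 at 22. Across the whole coding sequence of 432 bases, the 16 copies had a median identity of 97.2% to each other over 120 pairs (95.6% to 100%). Their identity to Eif1ax ranged from 83.6% to 85.2%. Reads can be shared among copies this alike, so their values are given mainly as a sum. Eif3j1 and Eif3j2, at 99.2% identity, are uncertain for the same reason, while Eif2s3x and Eif2s3y are 86.3% and Eif4a1 and Eif4a2 77.8% identical.

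Library totals ranged from 12246102 to 23147449 counts, and the members took 1.68% to 2.01% of them. Pearson's r between replicates of a group, over log2 CPM of all tested genes, was 0.935 to 0.972. No gene of the 12366 tested passed an adjusted p of 0.05 with edgeR's quasi-likelihood test and Benjamini-Hochberg adjustment, where the smallest adjusted p was 0.299, and DESeq2 called 35 of 14319 (0.244%). Marker lists showed differences that move with the groups or with single libraries. All 6 trophectoderm markers had higher agomir means, with a summed level of 2095 to 7005 CPM in agomir libraries, against 1795 to 3481 CPM in control libraries, highest in agomir 3 and next in control 2. All 5 inner cell mass markers had lower agomir means (152 to 249 CPM summed in agomir libraries, 179 to 413 CPM in control libraries). Of the 8 cumulus and granulosa markers, 3 passed the filter: Cyp11a1, Inha and Star. Ptx3, Has2, Amh, Foxl2 and Cyp19a1 did not pass and had at most 0.894 CPM in any library, so the sum rests mainly on Cyp11a1 and Inha. The list summed to 6.36 to 25.4 CPM in agomir libraries and 25.5 to 74.5 CPM in control libraries, with Cyp11a1 the highest of its genes in every library. The oocyte markers summed to at most 4.83 CPM and the blood markers to at most 1.65 CPM in any library. The part of these differences in the results for initiation factors was not tested. In pooled embryos, fewer cells of a type and less RNA per cell cannot be told apart.

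Several initiation factors were among the most abundant messages of the blastocyst. Levels between genes are given as FPKM, which is scaled to gene length. Eif5a, which encodes the hypusine-bearing factor that relieves stalled ribosomes, led with 1941 ± 657 FPKM in agomir libraries and 1881 ± 233 FPKM in control libraries (SD, n = 4 each), rank 72 of all genes. Eif2s2, the beta subunit of eIF2, followed with 1360 ± 141 FPKM in agomir libraries and 1774 ± 284 FPKM in control libraries. Eif4a1, the main eIF4A helicase, had 736 ± 118 FPKM in agomir libraries and 853 ± 77.4 FPKM in control libraries, and the eIF3 subunits Eif3e and Eif3m stood at 648 and 393 FPKM over all 8 libraries. In the order of levels, Eif3m, Eif3k, Eif1 and Eif4e lay between 358 and 393 FPKM and differed by less than their spread over libraries. Eif1ax, at 29.9 ± 2.24 FPKM in agomir libraries and 33.1 ± 5.87 FPKM in control libraries, was below the autosomal Eif1a, at 347 ± 29.1 FPKM in agomir libraries and 303 ± 72.7 FPKM in control libraries. Eif1a was 10.8 to 12.6 times Eif1ax in agomir libraries and 7.02 to 12.3 times Eif1ax in control libraries. Both label markers, Eif4a1 and Eif1ax, were measured in all 8 libraries.

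**Figure D1:**
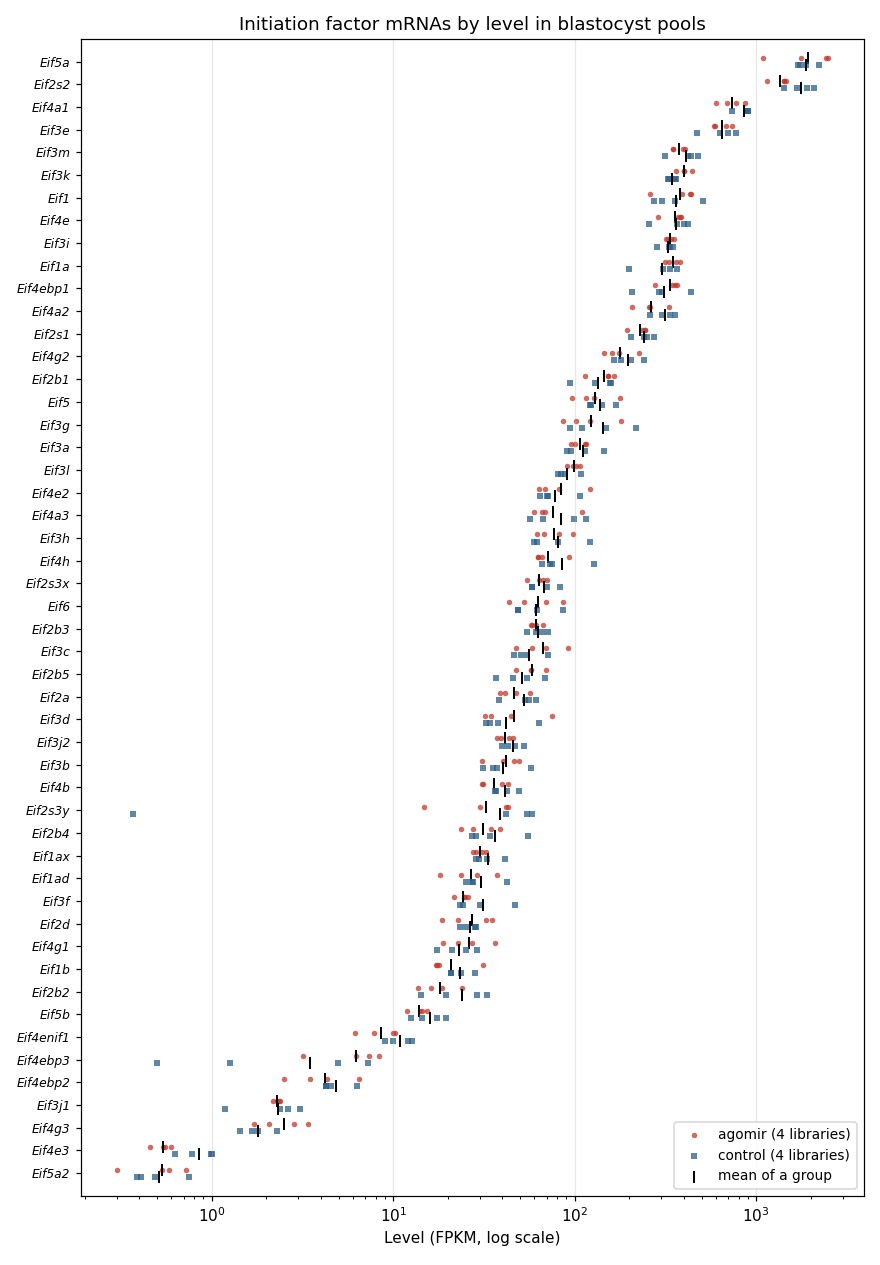
Level of the 50 initiation factor genes other than the eIF1A domain copies that passed the filter, in FPKM on a log axis. Points are libraries (red circles agomir, blue squares control, 4 each) and black bars are group means. Eif5a, Eif2s2 and Eif4a1 stand at the top, and the lone blue square near the left edge at Eif2s3y is control 4.

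Within families the levels were unequal. The subunits of eIF2 bind in a trimer, and Eif2s2 was 5.82 to 6.02 times Eif2s1 in agomir libraries and 5.91 to 9.36 times Eif2s1 in control libraries in FPKM. Of the cap-binding proteins, Eif4e stood at 358 FPKM, its relative Eif4e2 (4EHP) at 81.2 FPKM and Eif4e3 at 0.695 FPKM over all libraries. Of the scaffolds, Eif4g2 (DAP5, which lacks the eIF4E-binding region) had 187 FPKM, against 24.7 FPKM for Eif4g1 and 2.15 FPKM for Eif4g3. The eIF4E-binding protein Eif4ebp1 was at 323 FPKM, and its ratio to Eif4e was 0.935 to 0.969 in agomir libraries and 0.726 to 1.19 in control libraries. Eif4e1b, the eIF4E relative of the oocyte, had 9, 1, 0 and 1 counts in the agomir libraries and 0, 1, 0 and 1 counts in the control libraries, so it was at or near 0.

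The comparison of agomir with control pools asked whether any initiation factor message changed with miR-21-5p. None of the 61 tested members passed the adjusted threshold (smallest adjusted p 0.746, edgeR), against 0% of all genes, and DESeq2 called 0 of 60. Unadjusted p under 0.05 was seen for 3 of 61 members (4.92%), which is below the 6.38% of all genes: 1 higher (2.64% of all genes) and 2 lower (3.74% of all genes). The 4 agomir and 4 control libraries did not overlap in 1 of 61 members, Eif3k, with the agomir above (1.42% of all genes), and in 0 of 61 with the agomir below (2.47% of all genes), beside 3.89% of all genes in either direction. Leaving out the copies, 27 of 50 members had a higher and 23 a lower agomir mean, with a median log2 fold change of 0.03, beside 0.00 over all genes tested. This split depends on scaling and on single libraries. It was 23 higher and 27 lower with upper-quartile scaling and 19 higher and 31 lower with library totals alone, where the median of all genes itself moved to -0.11. It was 35 higher and 15 lower without agomir 1, and 19 higher and 31 lower without agomir 3. The 95% interval of the log2 fold change lay within 1 on either side of 0 for 44 of the 50, so for those a doubling or halving of the message is outside the interval.

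**Figure D2:**
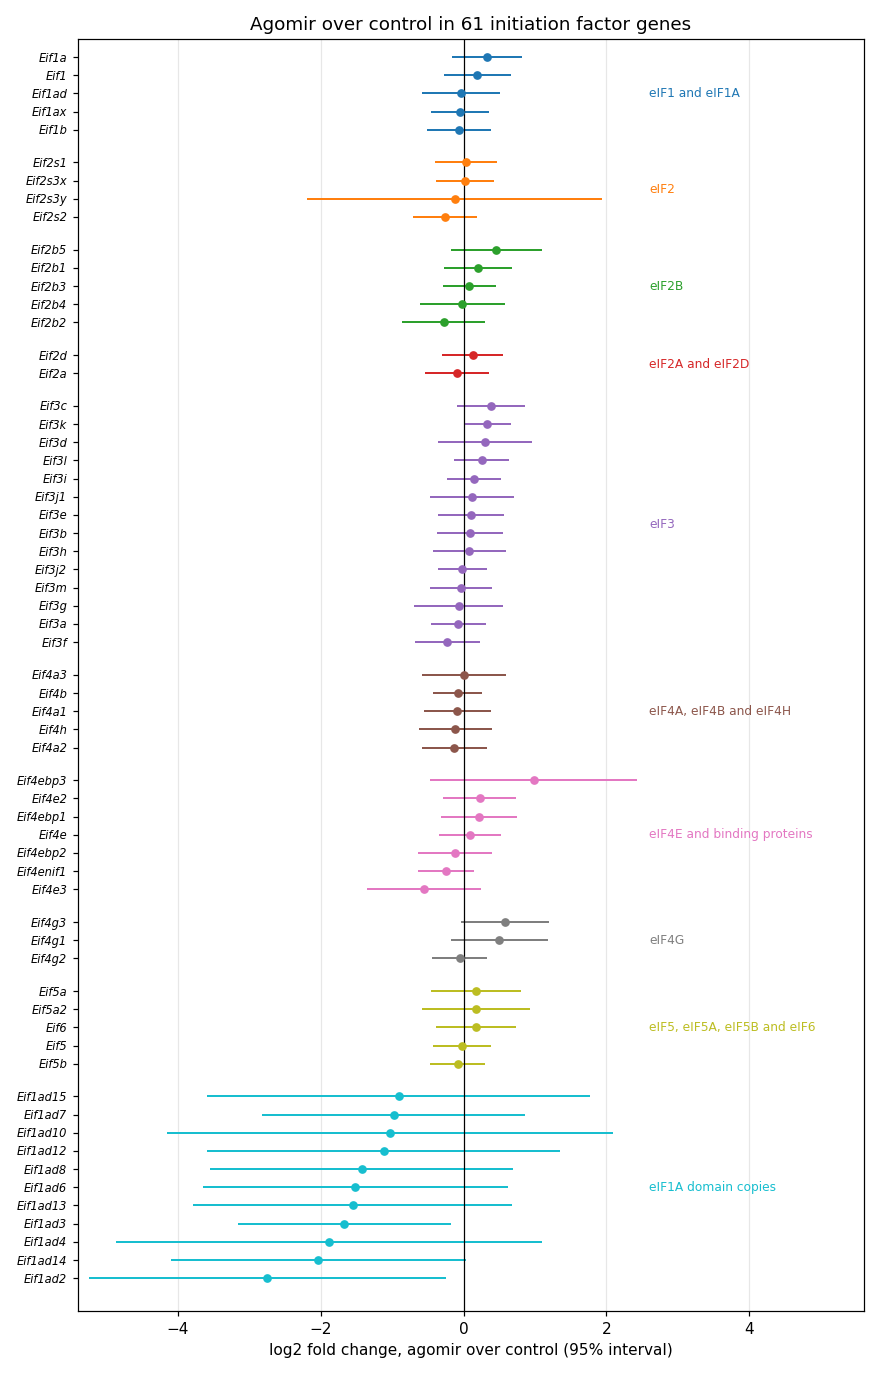
Log2 fold change, agomir over control, of the 61 tested members with its 95% interval, from edgeR on all 8 libraries, grouped by factor. Most intervals outside the eIF1A domain copies cross 0 and lie within 1 of it on either side, and that of Eif3k begins just above 0.

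Eif3k, an eIF3 subunit that is dispensable for viability in Caenorhabditis elegans and Neurospora, was the member with separate groups. It had 308, 321, 351 and 315 CPM in agomir libraries and 245, 244, 276 and 262 CPM in control libraries. Every agomir library was above every control library. The log2 fold change was 0.33 (SE 0.15, 95% interval 0.01 to 0.65), with an unadjusted p of 0.0419 and an adjusted p of 0.767 in edgeR. It lay between 0.22 and 0.38 under all 21 other fits, where the smallest adjusted p was 0.462. The unadjusted p of Eif3k was under 0.05 with DESeq2 but not with upper-quartile scaling, library totals alone or log2 FPKM. Nor was it under 0.05 without agomir 2, agomir 3, control 1, control 2 or control 4. No other eIF3 subunit had an unadjusted p under 0.05: of the 14 subunit genes, 9 had a higher and 5 a lower agomir mean, with a median of 0.10 and every interval within 1 of 0. That split turned with single libraries and scaling: it was 6 higher and 8 lower without agomir 3 (median -0.04) and with library totals alone (median -0.02), 7 and 7 without control 3, and 12 higher and 2 lower without agomir 1. The core subunits gave 0.39 for Eif3c (SE 0.21), 0.09 for Eif3b and -0.08 for Eif3a. Eif3a, the largest subunit, had 202, 201, 249 and 203 CPM in agomir libraries and 271, 232, 184 and 214 CPM in control libraries. Eif3e had 1103, 959, 1022 and 987 CPM in agomir libraries, against 1001, 626, 941 and 1209 CPM in control libraries (log2 fold change 0.11, SE 0.21), and control 2 was the lowest of all 8. Control 2 was also the lowest for Eif3m, which had 440, 478, 508 and 567 CPM in agomir libraries and 576, 353, 531 and 576 CPM in control libraries (log2 fold change -0.03, SE 0.19).

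The factors of start-codon choice showed no call. Eif1, which guards against starts at wrong codons, had 506, 534, 643 and 381 CPM in agomir libraries and 446, 594, 393 and 371 CPM in control libraries. The groups overlapped, with a log2 fold change of 0.19 (SE 0.21), which was 0.08 without agomir 3, 0.11 without control 4, 0.32 without agomir 4 and 0.36 without control 2. Eif1a had 923, 783, 824 and 960 CPM in agomir libraries, against 661, 439, 862 and 813 CPM in control libraries, where control 2 was lowest. Its log2 fold change was 0.33 (95% interval -0.14 to 0.80), and 0.17 without control 2. Eif5, the GTPase-activating protein of eIF2, had 266, 241, 370 and 234 CPM in agomir libraries and 283, 308, 264 and 272 CPM in control libraries (log2 fold change -0.02, SE 0.18), and the agomir libraries spanned the controls. Eif5b, the subunit-joining GTPase, had 108, 105, 136 and 104 CPM in agomir libraries and 130, 135, 97.2 and 116 CPM in control libraries (log2 fold change -0.08, SE 0.17). These groups overlapped too.

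Among the eIF2 subunits, Eif2s2 had 2888, 3346, 4089 and 4131 CPM in agomir libraries and 5028, 4256, 3592 and 4410 CPM in control libraries. The groups overlapped and the log2 fold change was -0.26 (95% interval -0.69 to 0.17). It depended on scaling. With library totals alone it was -0.39 (unadjusted p 0.0494, adjusted p 0.771, edgeR), where the median of all genes was -0.11. With log2(FPKM + 1) it was -0.38 (unadjusted p 0.0449, adjusted p 0.714, limma), where that median was -0.07. Eif2s1, the alpha subunit that stress kinases phosphorylate, had 659, 773, 913 and 928 CPM in agomir libraries, against 883, 610, 815 and 886 CPM in control libraries, a log2 fold change of 0.03 (SE 0.19). The 5 eIF2B subunits had a median of 0.08, with 3 higher and 2 lower. Eif2b5, the catalytic subunit, gave 0.46 (SE 0.28), from 70.7, 67.5, 148 and 65.8 CPM in agomir libraries and 67.6, 85.5, 47.7 and 54.6 CPM in control libraries. Agomir 3 was the highest and control 2 the next, and without agomir 3 the log2 fold change was 0.10.

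In the cap-binding complex, Eif4e had 540, 515, 481 and 587 CPM in agomir libraries and 550, 339, 523 and 587 CPM in control libraries (log2 fold change 0.09, SE 0.19). Eif4a1 had 1037, 1120, 1717 and 1513 CPM in agomir libraries, against 1482, 1136, 1535 and 1571 CPM in control libraries (log2 fold change -0.09, SE 0.21), and its close relative Eif4a2 had 387, 459, 697 and 549 CPM in agomir libraries and 603, 597, 487 and 598 CPM in control libraries (log2 fold change -0.13, SE 0.20). The groups overlapped for each of these genes. Eif4b, which stimulates the helicase, had 163, 142, 137 and 132 CPM in agomir libraries and 154, 168, 139 and 146 CPM in control libraries (log2 fold change -0.08, SE 0.15). The scaffolds had the highest group median outside the copies, 0.50 over 3 genes. Eif4g1 had 54.8, 60.6, 134 and 48.5 CPM in agomir libraries and 58.2, 64.0, 39.2 and 49.4 CPM in control libraries, a log2 fold change of 0.50 (SE 0.31), which was 0.06 without agomir 3. Eif4g3 had 11.0, 16.2, 18.2 and 9.78 CPM in agomir libraries, against 6.44, 8.50, 12.7 and 9.19 CPM in control libraries (log2 fold change 0.58, SE 0.28, unadjusted p 0.0596, adjusted p 0.793, edgeR). Its groups overlapped, and its value without agomir 3 was 0.42. Eif4g2 had 888, 670, 720 and 652 CPM in agomir libraries and 786, 851, 710 and 693 CPM in control libraries, which also overlapped. Of the eIF4E-binding proteins, Eif4ebp1 had 683, 684, 631 and 797 CPM in agomir libraries and 577, 364, 862 and 600 CPM in control libraries (log2 fold change 0.22, SE 0.24). The control libraries were the more spread, and the log2 fold change was 0.04 without control 2 and 0.45 without control 3. Eif4ebp3, at 2.36, 4.30, 7.09 and 6.10 CPM in agomir libraries and 5.12, 0.325, 0.930 and 3.82 CPM in control libraries, gave 0.98 (SE 0.66). Eif4enif1, the eIF4E transporter, had 29.7, 29.1, 21.7 and 26.6 CPM in agomir libraries and 36.1, 32.1, 30.1 and 28.6 CPM in control libraries (log2 fold change -0.24, SE 0.17). The lowest control lay below the 2 highest agomir libraries. Eif5a had 3203, 1347, 3783 and 2623 CPM in agomir libraries and 2199, 2226, 2231 and 3027 CPM in control libraries. Agomir 2 was the lowest of all 8 libraries and agomir 3 the highest, and the log2 fold change was 0.18 (SE 0.28). Eif6, which keeps the large subunit from joining early, had 101, 73.5, 147 and 69.8 CPM in agomir libraries and 87.3, 113, 71.5 and 74.5 CPM in control libraries (log2 fold change 0.17, SE 0.25).

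Single libraries stood apart in these messages. Agomir 3 had the highest value of all 8 libraries for 23 of the 50 members other than the copies (46%), against 19.4% of all genes tested. Each library was set against the mean of the other 3 of its group in log2 CPM for 49 members, Eif2s3y left out. In agomir 3, 20 members were higher by over 0.5 and 2 were lower by over 0.5, beside 21.4% and 18.6% of all genes. In control 2, 13 were higher and 9 lower by over 0.5, beside 19.1% and 22.7% of all genes. No share over all genes was taken for genes high in both libraries, so no excess is read from members named as high in both. In log2 FPKM with the median of all genes set to 0, 18 of the 20 were still higher by over 0.5 in agomir 3.

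The eIF3 subunits did not move as 1 group within these libraries. Eif3d, which can bind the cap of some messages, was 1.20 higher in agomir 3 and 0.71 higher in control 2. Eif3g, an RNA-binding subunit, was 0.99 and 0.75 higher, and Eif3h and Eif3b also exceeded 0.5 in both. Eif3e and Eif3m, which sit in the same octameric core as Eif3h, were 0.01 and 0.05 higher in agomir 3 and -0.74 and -0.67 in control 2, so subunits of 1 complex lay on both sides of 0 in control 2. Eif2b4, Eif2b5, Eif2b2, Eif4h, Eif4a3 and Eif6 were high with Eif3d in both libraries, while Eif4e, Eif2a, Eif2b1, Eif4ebp1 and Eif1a were lower by over 0.5 in control 2. Across the 49 members the step in agomir 3 correlated with GC content of the transcript at r = 0.49 (0.01 across all genes) and the step in control 2 at 0.30 (0.17 across all genes). Values as large with the opposite sign stood in other libraries, at -0.50 in agomir 4 (-0.09 across all genes) and -0.30 in control 4 (-0.02 across all genes). The steps within a group balance out for each gene. Correlations of both signs must therefore arise in a group, and these values are not separate observations. The points share a library and its scaling, and the r between the 2 steps was 0.32 over the members and 0.22 over all genes. The elongation factor Eef2, at 139, 193, 365 and 144 CPM in agomir libraries and 192, 334, 161 and 177 CPM in control libraries, was high in the same pair of libraries, while Eef1e1 of the same list was lowest of all 8 in control 2, at 209 CPM. The summed trophectoderm markers were also highest in this pair, mainly through Krt8 and Krt18, which had 1170 and 2016 of the 3481 CPM in control 2. Elf5 of that list was lowest of all 8 libraries in control 2, at 39.0 CPM. The part of GC content and of the markers was not tested. Without control 2 and agomir 3, the median log2 fold change of the 50 members was -0.01, with 24 higher and 26 lower.

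**Figure D3:**
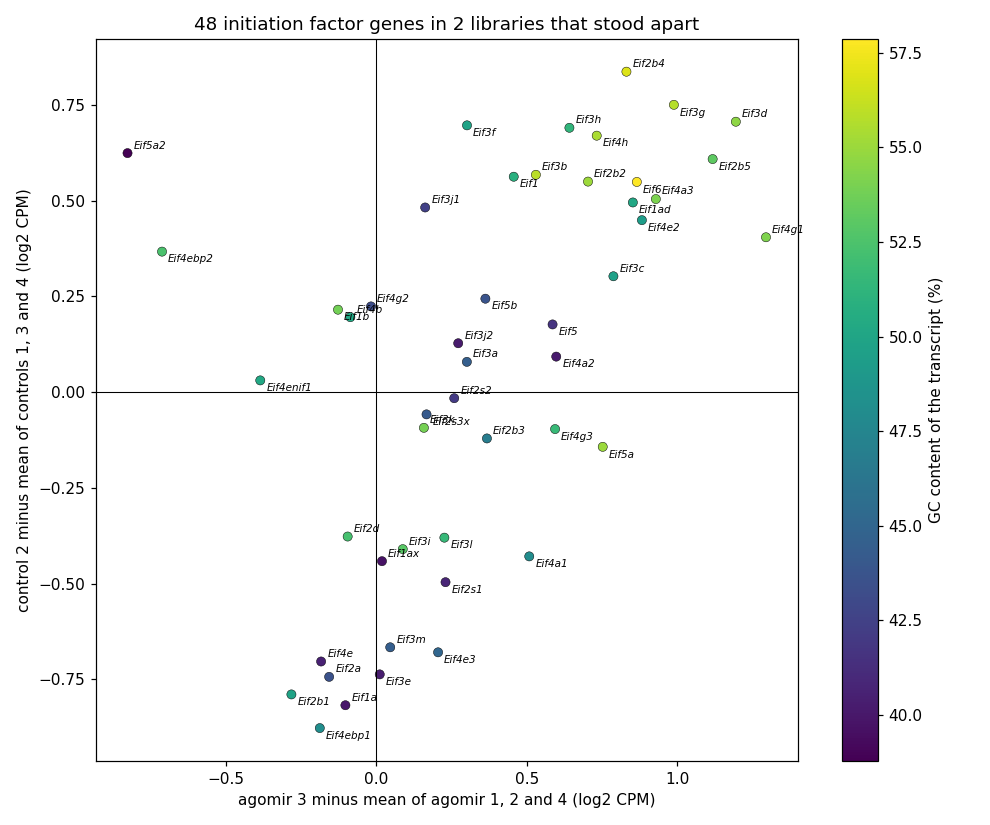
Step of agomir 3 from the mean of agomir 1, 2 and 4 (horizontal) and of control 2 from the mean of controls 1, 3 and 4 (vertical), in log2 CPM, for 48 members, coloured by GC content of the transcript (Eif2s3y and Eif4ebp3, whose step in control 2 was -2.69, are not drawn). Eif3d, Eif3g and Eif2b5 lie at the upper right, and Eif3e, Eif3m, Eif4e and Eif1a at the bottom near 0 on the horizontal axis.

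The eIF1A domain copies were the members with the widest spread, and their values turned on control 3 and agomir 2. Their summed level was 15.4, 89.6, 12.7 and 19.5 CPM in agomir libraries and 32.0, 19.6, 298 and 27.6 CPM in control libraries. Control 3 was the highest library for all 16 copies, and agomir 2 was the next in the sum. All 11 tested copies had a lower agomir mean, with a median log2 fold change of -1.51. Eif1ad3 had 4.67, 5.46, 1.94 and 3.29 CPM in agomir libraries, against 3.80, 3.72, 35.2 and 6.16 CPM in control libraries, a log2 fold change of -1.67 (SE 0.68, unadjusted p 0.0299, adjusted p 0.746, edgeR). Eif1ad2 had 0, 1.74, 0.0606 and 0.726 CPM in agomir libraries, against 1.71, 0.511, 13.5 and 1.59 CPM in control libraries, with a fitted log2 fold change of -2.75 (SE 1.14, adjusted p 0.746). The groups overlapped for each copy. Eif1ad6 had 0.402, 8.79, 1.94 and 2.76 CPM in agomir libraries and 4.27, 4.18, 29.3 and 1.94 CPM in control libraries, and Eif1ad10 had 1.00, 22.3, 1.64 and 1.26 CPM in agomir libraries and 1.78, 1.11, 48.0 and 2.48 CPM in control libraries. Control 3 and then agomir 2 led in both. Without control 3 the median of the 11 copies was 0.26, with 8 higher and 3 lower, and Eif1ad3 and Eif1ad2 gave -0.24 and -0.96. Without agomir 2 alone the median was -2.50, with 0 higher and 11 lower. Without control 3 and agomir 2 the median was -0.74, with 2 higher and 9 lower. The median was thus above 0 only where control 3 was left out and agomir 2 was kept.

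Eif1ad16 shows the same library most sharply: it had 31.1 CPM in control 3 and at most 0.387 CPM in any other library, and did not pass the filter. Eif4a3l1 and Eif4a3l2, copies of the eIF4A3 helicase gene, were also highest in control 3, at 2.09 and 2.74 CPM. Several copies, under older symbols such as Gm5662, Gm2022 and BB287469 (Eif1ad7, Eif1ad4 and Eif1ad2), are known for a burst of expression at the 2-cell stage of the mouse embryo. The 4 other genes of that stage (Zscan4c, Zscan4d, Zfp352 and Usp17la), none of which passed the filter, summed to 23.3 CPM in control 3. Zfp352 alone had 16.8 of these CPM, and the others had 1.07 to 3.07 CPM each. In every other library the 4 genes summed to at most 0.251 CPM. In agomir 2, where the copies were the second highest, the 4 genes summed to 0.0483 CPM, so they were at or near 0 there.

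**Figure D4:**
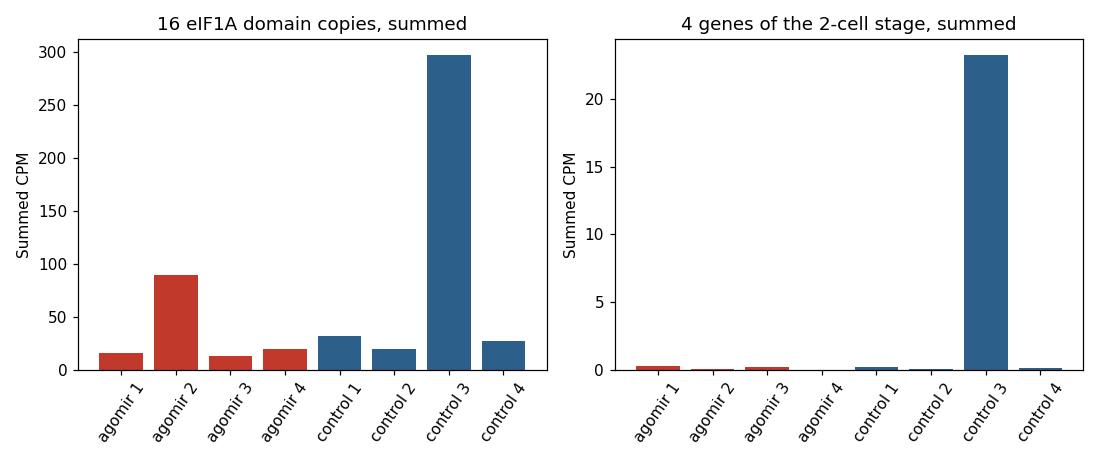
Summed CPM of the 16 eIF1A domain copies (left) and of 4 genes of the 2-cell stage (right) in each library, agomir in red and control in blue. Control 3 is highest in both panels, at 298 and 23.3 CPM, and agomir 2, at 89.6 CPM of the copies, has 0.0483 CPM of the 2-cell genes. Zfp352 makes up 16.8 of the 23.3 CPM.

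The gamma subunit of eIF2 is encoded on both sex chromosomes, by Eif2s3x and Eif2s3y. Eif2s3y had 54.5, 73.1, 30.8 and 85.7 CPM in agomir libraries and 101, 88.3, 76.3 and 0.695 CPM in control libraries. Control 4 was near 0 and agomir 3 was the lowest of the others. The Y-linked Ddx3y followed it, with 39.5, 42.0, 23.1 and 47.1 CPM in agomir libraries and 63.0, 59.7, 43.2 and 0.894 CPM in control libraries. Uty was at 0 in control 4. Kdm5d, also Y-linked, set these 2 libraries less apart, with 0.795 CPM in control 4 and 0.969 CPM in agomir 3. It had 2.76 to 5.53 CPM in the others. Eif2s3x had 255, 227, 263 and 223 CPM in agomir libraries, against 201, 227, 210 and 314 CPM in control libraries. Eif1ax had 167, 148, 162 and 166 CPM in agomir libraries, against 161, 130, 153 and 222 CPM in control libraries. Both X-linked genes were highest in control 4. Other tested X-linked genes of the lists were not. Ddx3x was highest in agomir 1, at 295 CPM, and Mcts1 in agomir 3, at 190 CPM, with control 4 next at 280 and 171 CPM. Gspt2 was lowest of all libraries in control 4, at 2.14 CPM. The log2 fold changes were -0.12 for Eif2s3y (SE 0.91), 0.02 for Eif2s3x (SE 0.18) and -0.05 for Eif1ax (SE 0.18). Without control 4, Eif2s3y gave -0.53 and Eif1ax 0.13. The labels do not give the sex of the embryos in a pool, and Xist, the X-linked marker set by name, was not among the deposited genes.

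**Figure D5:**
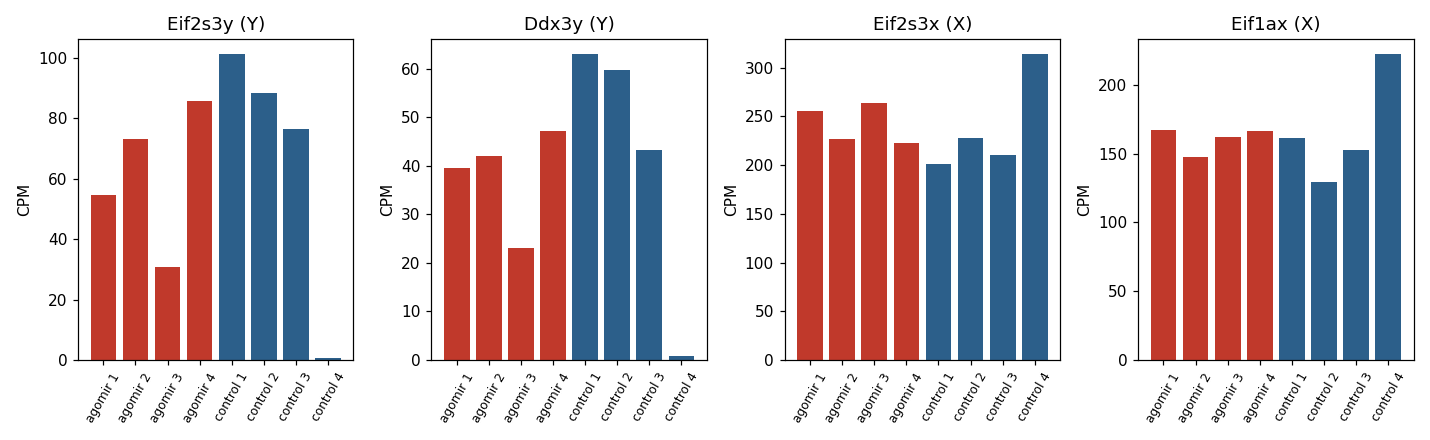
CPM of Eif2s3y and Ddx3y on the Y chromosome and of Eif2s3x and Eif1ax on the X chromosome in each library, agomir in red and control in blue. Control 4 has 0.695 CPM of Eif2s3y and the tallest bars of Eif2s3x and Eif1ax, at 314 and 222 CPM.

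Around initiation, 57 of 57 pathway genes were tested and none passed the adjusted threshold (smallest adjusted p 0.810, edgeR), nor had any an unadjusted p under 0.05, beside 6.38% of all genes. Of them 35 had a higher and 22 a lower agomir mean, with a median of 0.06. Of the 8 targets of the integrated stress response, the programme that follows phosphorylation of eIF2 alpha, 7 had a higher agomir mean, with a median of 0.36. Of all genes tested, 6262 of 12366 had a higher agomir mean. The lower target was Atf3, at -0.97 (SE 0.64), and the phosphatase subunit Ppp1r15a, of another list, gave -0.79 (SE 0.47). The targets summed to 430 to 773 CPM in agomir libraries and 297 to 734 CPM in control libraries, so the groups overlapped. Atf4, the transcription factor at the centre of this response, had 156, 141, 238 and 134 CPM in agomir libraries and 121, 98.8, 207 and 127 CPM in control libraries (log2 fold change 0.27, SE 0.26). Agomir 3 and control 3 were the high libraries. Eif2ak2, the kinase PKR that double-stranded RNA activates, had 0.552, 2.08, 1.82 and 1.45 CPM in agomir libraries, against 1.09, 1.76, 1.49 and 1.54 CPM in control libraries. Pdcd4, an inhibitor of eIF4A and a known miR-21 target, had 74.8, 137, 66.5 and 117 CPM in agomir libraries, against 76.4, 132, 113 and 123 CPM in control libraries (log2 fold change -0.17, SE 0.25, adjusted p 0.927, edgeR). Eef1a1, which brings aminoacyl-tRNA to the ribosome, had 3363, 3959, 3916 and 3534 CPM in agomir libraries and 3534, 4037, 3225 and 3512 CPM in control libraries (log2 fold change 0.05, SE 0.17), and Eef2, the translocase, gave -0.04 (SE 0.33).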

How the data were processed

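Poly(A)-selected RNA of 8 pools of 5 blastocysts was sequenced. Per the file headers, the deposited table gives a count and an FPKM value for each gene and library. The authors' count columns were treated, in the form deposited, like expected counts (estimated counts per gene), since 1212 of 176104 values were not whole, and were rounded for the count models. Per the submitters' processing notes, the build was GRCm39 and the tools were RSEM, HISAT2 2.1.0, StringTie 1.3.1, fastp 0.18.0 and DESeq2 1.36.0, beside FastQC and MultiQC. Not given in the sources used here are which step each tool served, the annotation release and the use of strand. The authors' deposited FPKM values, which allow for transcript length, served for levels between genes and for an alternative test. Columns of other samples numbered 0.

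Genes were kept with filterByExpr (minimum count 10, minimum total 15), which left 12366, and tested by edgeR 4.0.16 under R 4.3.3 with a robust quasi-likelihood fit, TMM scaling and no covariate. P-values are 2-sided and adjusted by Benjamini-Hochberg over all genes tested. CPM are TMM-scaled, and log2 fold changes are agomir over control, with SE the size of the change divided by the square root of F. Alternatives used DESeq2 1.42.0 and limma 3.58.1 on log2(FPKM + 1) and log2(FPKM + 0.1), other scalings and filters, a replicate block, a Y-linked covariate and the loss of each library. The test was run first on simulated counts. All 69 members matched GENCODE M21 (GRCm38) by Ensembl identifier, which gave chromosome names, GC content, coding sequences and untranslated regions. No coordinates were combined between builds.

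Members, factor groups, pathway and marker lists were chosen with earlier results of these data known. Values per library are given for members with unadjusted p under 0.05 or separate groups, a list of members set by name, the 5 of highest FPKM and the 3 of largest change each way at 5 CPM or more. Of the pathway genes, Atf4, Eif2ak2, Pdcd4, Eef1a1 and Eef2 were set by name. Other genes named with library values (Eef1e1, Elf5, Krt8, Krt18, Uty, Kdm5d, Zscan4d, Zfp352, Usp17la, Eif4ebp3, Ddx3y, Ddx3x, Mcts1, Gspt2, Eif1ad16, Eif4a3l1 and Eif4a3l2) were chosen after their values were seen.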

Additional observations from a re-analysis of the deposited data

Results flagged for a closer look

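In each of 122 groups of 4 libraries (61 members in agomir and control), the highest or lowest library was set against its nearest neighbour, and 25 groups had 1 library that stood far from the other 3. Far is relative to the range of the 4 values and not to the size of the step. The figure of about 1 in 20 groups by chance holds for independent values with a normal spread. Members share libraries and the copies can share reads, so the groups are not independent. No share over all genes is given, so no excess is read from the count. The 25 cases fell mostly in 2 libraries, 12 in control 3 and 7 in agomir 3.

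In agomir 3, Eif3a at 249 CPM, Eif3g at 226 CPM, Eif4e2 at 162 CPM, Eif3d at 161 CPM, Eif2b5 at 148 CPM, Eif5b at 136 CPM and Eif4g1 at 134 CPM were flagged above the other agomir libraries. The steps of Eif3a and Eif5b were small, at 0.30 and 0.36 in log2 CPM. In control 2, Eif4h at 269 CPM and Eif3d at 106 CPM were far above the other controls. Eif5a was flagged above the other controls in control 4, at 3027 CPM (a step of 0.45 in log2 CPM).

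In agomir 2, the copies Eif1ad7 at 27.2 CPM, Eif1ad10 at 22.3 CPM and Eif1ad15 at 9.57 CPM stood above the other agomir libraries. In control 3, Eif1ad7 at 54.0 CPM, Eif1ad10 at 48.0 CPM, Eif1ad3 at 35.2 CPM, Eif1ad6 at 29.3 CPM, Eif1ad8 at 19.2 CPM, Eif1ad15 at 18.1 CPM, Eif1ad4 at 17.1 CPM, Eif1ad2 at 13.5 CPM, Eif1ad14 at 12 CPM and Eif1ad12 at 4.23 CPM stood above the other controls. Control 3 was also flagged below the other controls for Eif4a2, at 487 CPM, and for Eif3j1, at 6.33 CPM. The steps were -0.30 and -1.11 in log2 CPM.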

How the results depend on the processing

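No initiation factor gene passed the adjusted threshold under any of the 21 other fits. Over all genes DESeq2 called 35, and edgeR called 0 to 1 when a library was left out (1 without control 4). The count of members with an unadjusted p under 0.05, 3 as reported, was 1 with log2(FPKM + 1), 1 with no filter, 1 at a mean of at least 5 CPM and 1 with the replicate block. The member under 0.05 was Eif2s2 with log2(FPKM + 1), an eIF4G gene with no filter and with the replicate block, and a copy at 5 CPM. Eif3k was thus not under 0.05 in these fits. The count was 0 to 8 with a library left out (0 without agomir 3, 8 without agomir 2, 5 without control 1). All 8 without agomir 2 were eIF1A domain copies, which can share reads, against 0 of the 50 other members. With pairs of libraries left out, chosen after the data were seen, the count was 0 without control 2 and agomir 3, 1 without control 3 and agomir 2 and 0 without control 4 and agomir 3. No share over all genes is given for these fits. Same-numbered libraries did not deviate together (r from -0.14 to 0.12 over 4 pairs, 2 of 8 libraries correlating best with their own number), so the numbers were not taken as pairs. Under the replicate block the median of the copies was -0.94 and Eif2s3y gave 0.17.

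Small log2 fold changes turned sign. With log2(FPKM + 1) these were Eif2s1 -0.076, Eif2s3x -0.070, Eif2s3y 0.56, Eif4e -0.0024 and Eif5a -0.021, and with log2(FPKM + 0.1) Eif2s1 -0.077, Eif2s3x -0.071, Eif2s3y 0.92, Eif4e -0.0023 and Eif5a -0.021. With library totals alone they were Eif2s1 -0.080, Eif2s3x -0.081 and Eif4e -0.011, and with upper-quartile scaling Eif2s1 -0.034 and Eif2s3x -0.049. At a mean of at least 5 CPM Eif2s3x gave -0.0072, and DESeq2 gave 0.0027 for Eif5. With the Y-linked covariate Eif1ax gave 0.045, Eif2s3y 0.30 and Eif3m 0.0014. Without control 2 and agomir 3 the values were Eif2s1 -0.13, Eif2s3x -0.039, Eif2s3y 0.27, Eif4e -0.013, Eif4g2 0.016, Eif5a -0.054 and Eif3e -0.045. Without control 3 and agomir 2, Eif4a1 gave 0.032, Eif5 0.015 and Eif3m 0.016. Without control 4 and agomir 3, Eif1ax gave 0.14, Eif6 -0.13 and Eif3m 0.047. The cause was not tested.

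With 1 library left out, the ranges were -3.36 to 1.87 for Eif1ad10, -2.54 to 0.021 for Eif1ad6, -0.15 to 0.13 for Eif1ax, -0.072 to 0.13 for Eif2s1, -0.048 to 0.19 for Eif2s3x, -0.53 to 0.15 for Eif2s3y, -0.15 to 0.027 for Eif3a, -0.043 to 0.25 for Eif3e, -0.17 to 0.035 for Eif3m, -0.22 to 0.022 for Eif4a1, -0.057 to 0.18 for Eif4e, -0.16 to 0.0085 for Eif4g2, -0.19 to 0.057 for Eif5, -0.014 to 0.41 for Eif5a and -0.085 to 0.33 for Eif6. Without a change of sign they were 0.075 to 0.36 for Eif1, 0.17 to 0.46 for Eif1a, 0.043 to 0.45 for Eif4ebp1, 0.095 to 0.64 for Eif2b5, 0.058 to 0.66 for Eif4g1, 0.42 to 0.78 for Eif4g3, 0.30 to 0.38 for Eif3k, -0.33 to -0.16 for Eif2s2, -0.29 to -0.0039 for Eif4a2, -0.29 to -0.15 for Eif4enif1, -0.15 to -0.029 for Eif4b, -0.18 to -0.015 for Eif5b, -3.97 to -0.96 for Eif1ad2 and -1.97 to -0.24 for Eif1ad3. The 547 other values of named genes kept their direction and side of the threshold. Members below about 5 CPM rest on few counts, and counting among the near-identical copies limits their single values.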
